A study of Rattus norvegicus with 24 samples.

Results

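The genes described here encode proteins of the mitochondrial ribosome, and were taken as every gene whose symbol begins with Mrpl or Mrps followed by a number. The rule found 71 of the 10851 genes in the count table. Rats were male Wistars in 4 groups of 6, from which RNA of the left medial gastrocnemius, a calf muscle made mostly of fast-twitch fibers, was sequenced after poly-A selection. Sed rats received saline and stayed sedentary, and Ex rats received saline and were trained on a treadmill. CC-Sed and CC-Ex rats received 1 injection of monocrotaline, a plant alkaloid that injures the vessels of the lung, overloads the right side of the heart and leads to cardiac cachexia (CC), and then stayed sedentary or were trained on the treadmill. The model is therefore one of right-sided heart failure in males, and the effect of monocrotaline on muscle cannot be told apart from that of the failing heart. The labels give no age for the rats and mark no shared cage or litter.

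Mitochondria keep ribosomes of their own, which translate only the few proteins that mitochondrial DNA encodes, all of them subunits of the respiratory chain and ATP synthase. The ribosomal RNAs come from mitochondrial DNA, whereas every protein of these particles is encoded in the nucleus, made in the cytosol and imported. Some of the proteins have counterparts in bacterial ribosomes and others exist only in mitochondria, and the large subunit joins amino acids while the small subunit reads the message. In skeletal muscle these genes are usually expressed along with the respiratory chain, which is abundant in oxidative fibers.

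Of the 71 genes, 44 encode proteins of the large subunit, 27 of them with a bacterial counterpart and 17 specific to mitochondria. Another 26 belong to the small subunit, 16 with a bacterial counterpart and 10 specific to mitochondria. *Mrps18a* and *Mrps30* are counted in the large subunit, where their products sit in spite of their names. *Mrps36* is kept apart, because its product is now regarded as a component of the 2-oxoglutarate dehydrogenase complex. Read counts per rat totalled 37816200 to 50350600, a single gene had between 188 and 5453 counts in a rat, and the 71 genes together took 0.176% to 0.245% of all counts. Levels are given as CPM, the counts of a gene scaled to library size by the TMM method. In whole muscle, fewer cells of a type and less RNA per cell cannot be told apart.

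The mean level of the 71 genes varied as much within groups as between them. In Sed rats the mean of their log2 CPM values ran from 4.57 through a median of 4.65 to 4.76, and in Ex rats from 4.45 through 4.69 to 4.87. In CC-Sed rats it ran from 4.32 through 4.47 to 4.93, and in CC-Ex rats from 4.40 through 4.51 to 4.74. CC-Sed replicate 4 had the highest value of all 24 rats and CC-Sed replicate 1 the lowest, and all 4 groups overlapped. The means were 4.66 ± 0.09 for Sed and 4.66 ± 0.17 for Ex, against 4.54 ± 0.21 for CC-Sed and 4.54 ± 0.15 for CC-Ex (SD, n = 6).

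**Figure D1:**
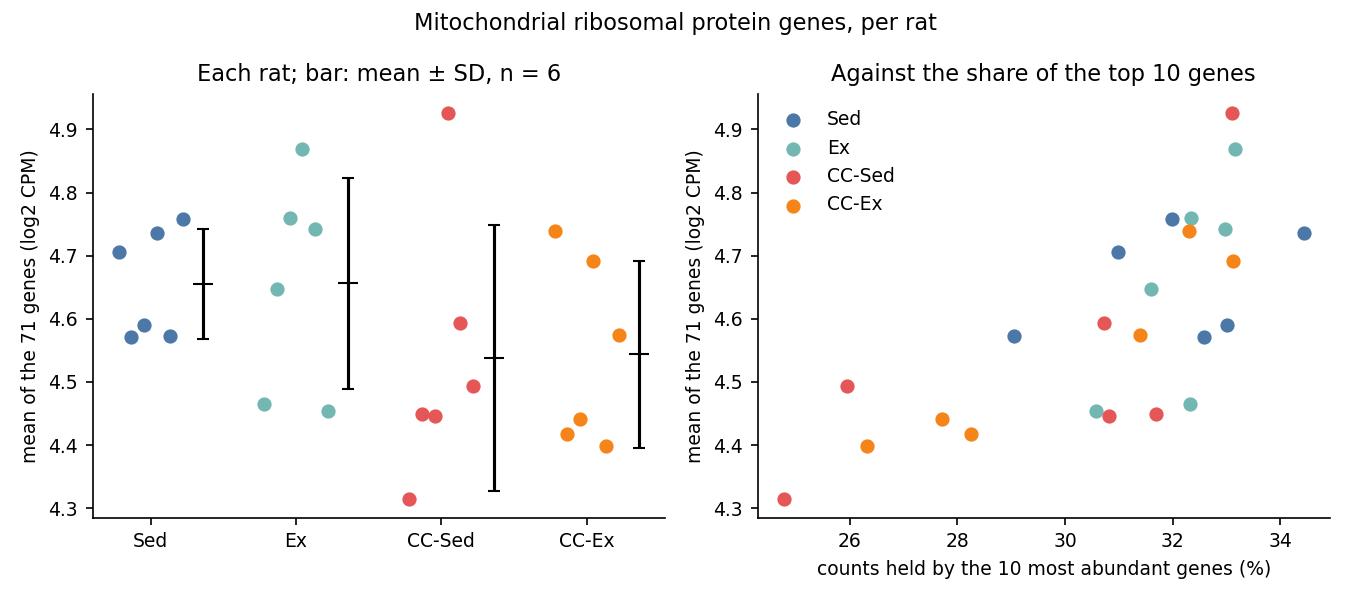
Mean log2 CPM of the 71 mitochondrial ribosomal protein genes in each rat, by group (left, bars are the mean ± SD of 6 rats) and against the percentage of all counts held by the 10 most abundant genes of the table (right). The 4 groups overlap, and the rats with the smallest share of the 10 most abundant genes, all given monocrotaline, lie in the lower part of the plot.

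The share of counts held by the 10 most abundant genes moved with this mean. These 10 were taken anew in each rat and included *Acta1* and *Myh4*, of the contractile apparatus, and the mitochondrially encoded *Mt-co1* and *Mt-co3* in all 24. Mitochondrially encoded genes among them held 4.42% to 25.1% of a rat's counts and nuclear genes 8.08% to 27.9%. Sed rats had 29.05% to 34.4% and Ex rats 30.6% to 33.2%, against 24.8% to 33.1% for CC-Sed and 26.3% to 33.1% for CC-Ex, and the 5 rats under 29% were CC-Sed replicates 1 and 6 and CC-Ex replicates 2, 3 and 5. With group means removed, its correlation with the mean of the 71 genes was r = 0.67 over 24 rats, which share the library and its scaling with both measures. It was r = 0.76 for the mitochondrially encoded genes among the 10 and r = -0.50 for the nuclear ones. The mean of the 71 genes correlated at r = 0.93 with that of the nuclear respiratory chain genes. It gave r = 0.89 with the mean of the mitochondrially encoded genes and r = 0.36 with that of the slow-fiber markers. With the TMM scaling factor it gave r = -0.66. Of 9 slow-fiber markers 6 were in the table, and their mean log2 CPM ranged from 4.33 to 8.71 for Sed and 4.13 to 10.1 for Ex, against 4.81 to 10.3 for CC-Sed and 2.45 to 9.95 for CC-Ex. Fast-fiber markers, 8 of 10 in the table, had mean log2 CPM of 12.8 to 13.3 for Sed and 12.5 to 13.2 for Ex. The range was 11.6 to 13.1 for CC-Sed and 12.2 to 13.3 for CC-Ex. Of the markers of other cells, averaged over training, 2 of 5 endothelial, 2 of 3 erythroid and 1 of 2 satellite cell genes were called higher, 2 of 5 fibroblast and 1 of 2 adipocyte genes lower, and 0 of 6 macrophage and 0 of 2 Schwann cell genes either way. The endothelial genes differed in direction, with a Log2FC of 1.26 for *Vwf* and 0.60 for *Kdr*, the 2 called. *Emcn* at -0.33, *Cdh5* at -0.20 and *Tek* at -0.10 were below 0 and not called. Averaged over training, 17.2% of all genes were called higher and 10.6% lower. The part of fiber makeup in the values below was not tested beyond the fit with the slow-fiber markers as a covariate.

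The comparison of monocrotaline with saline, averaged over training, asked whether cachectic muscle differed in these genes when all 24 rats were used. It called 10 of the 71 genes at an adjusted p under 0.05 by edgeR's quasi-likelihood test with Benjamini-Hochberg adjustment over all 10851 genes. *Mrps27*, *Mrpl36* and *Mrpl32* were higher in the monocrotaline rats, and *Mrpl51*, *Mrpl40*, *Mrpl33*, *Mrps12*, *Mrps11*, *Mrpl18* and *Mrps21* were lower. The 10 genes were 14.1% of the 71, against 27.8% of all genes. The higher calls, 3 of 71, compare with 17.2% of all genes, and the 7 lower calls with 10.6%. Upper-quartile scaling gave 2 higher and 10 lower calls (26.9% of all genes called), and library size alone 3 higher and 4 lower (24.8%). The count moved further with library number as a covariate, to 4 of 71 (23.1% of all genes), with the slow-fiber markers as a covariate, to 17 of 71 (36.2%), and by limma-voom with sample quality weights, to 28 of 71 or 39.4% (36.4%).

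All 71 genes stayed well within a 2-fold change, with Log2FC from -0.54 to 0.52. The median was -0.12, against 0.01 for all genes tested, and 48 of the 71 lay below 0. The medians were -0.14 for the 44 large-subunit genes, of which 31 lay below 0, and -0.05 for the 26 small-subunit genes, of which 16 did. By origin, the medians were -0.14 and -0.12 for large-subunit genes with and without a bacterial counterpart, and -0.10 and -0.01 for the same classes of the small subunit. Whether these classes differed was not tested.

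**Figure D2:**
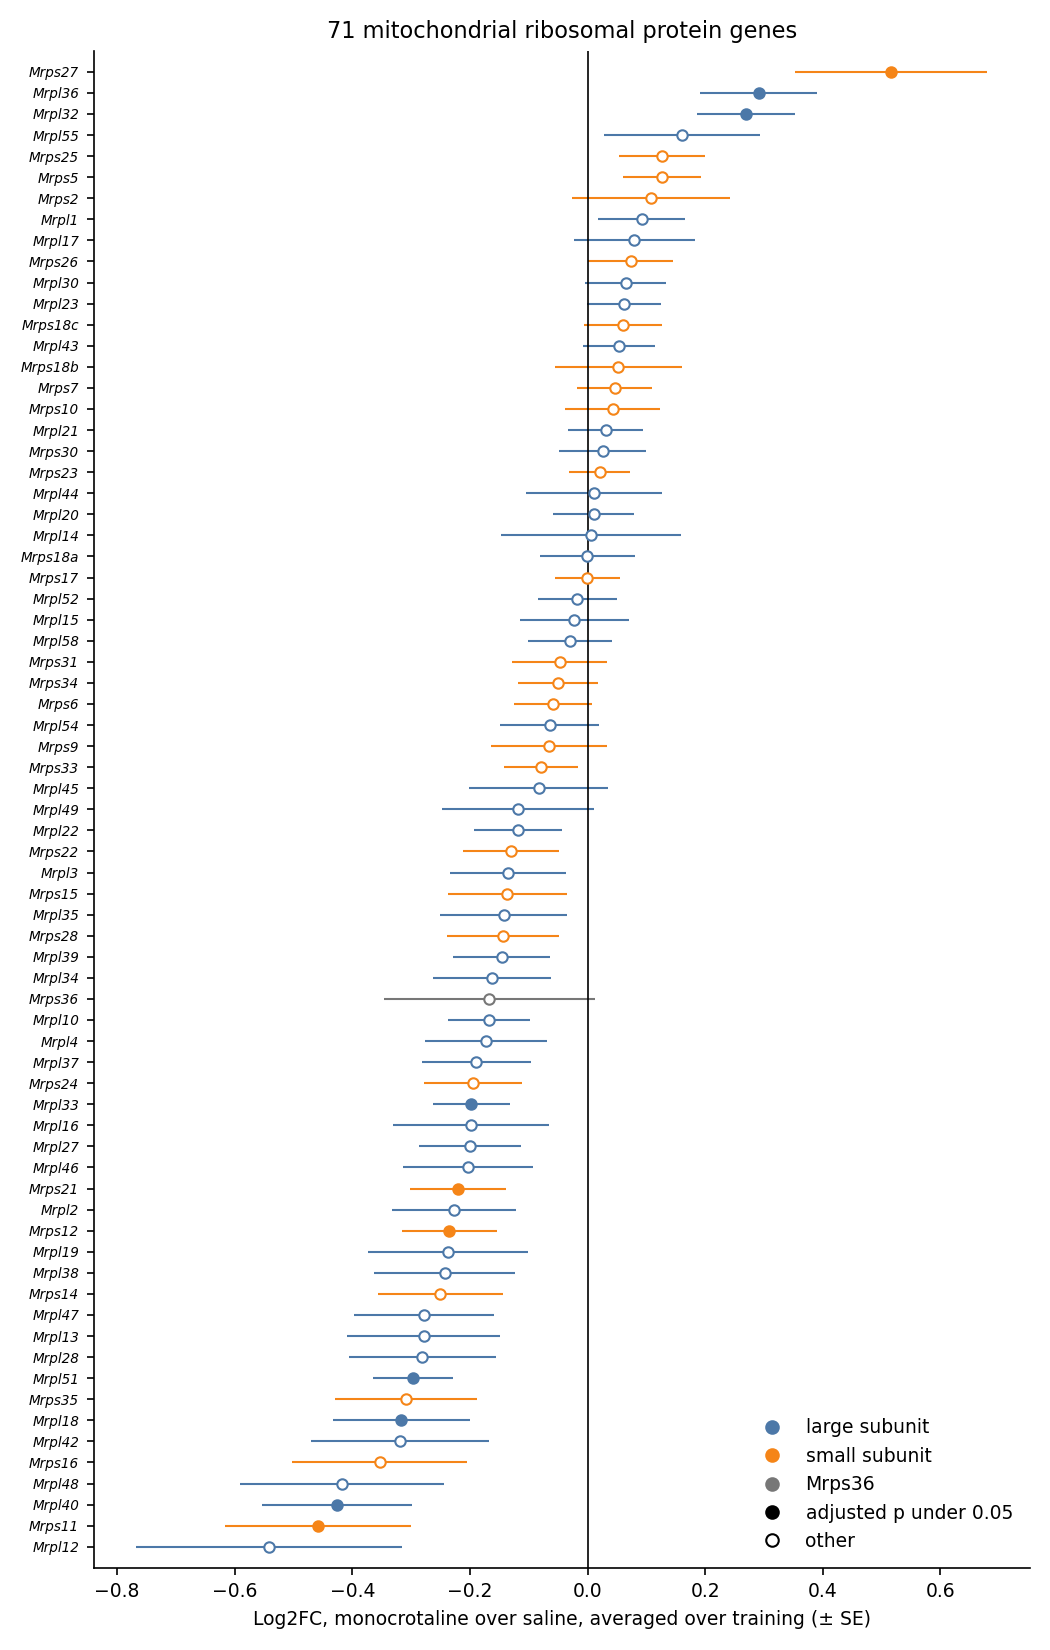
Log2FC of monocrotaline over saline, averaged over training, for each of the 71 genes with its SE from the fit on 24 rats. Filled points passed an adjusted p of 0.05, and most points lie left of 0, from *Mrpl12* at -0.54 to *Mrps27* at 0.52.

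The lowest adjusted p belonged to *Mrpl51*, which encodes a large-subunit protein specific to mitochondria. Its level was 43.4 to 51.7 CPM in Sed (median 50.1) and 41.1 to 52.05 in Ex (median 49.8), against 33.9 to 46.4 in CC-Sed (median 37.6) and 35.0 to 51.6 in CC-Ex (median 38.2). Most monocrotaline rats were below most saline rats, although the ranges overlapped under both conditions. The Log2FC averaged over training was -0.30 (SE 0.07, adjusted p = 0.00464), a ratio of 0.814, and an exact permutation test within training gave p = 0.0003. The permutation p is unadjusted and comes from the same rats by which the gene was chosen, so it adds no separate evidence. *Mrpl51* was also the only one of the 71 called between Sed and CC-Sed alone, with a Log2FC of -0.36 (SE 0.10, adjusted p = 0.0340), and the call was lost when any 1 of 8 rats was left out (Sed replicates 2, 3, 4 and 5 and CC-Sed replicates 1, 3, 5 and 6).

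*Mrpl40*, likewise a mitochondria-specific protein of the large subunit, ran from 38.3 to 46.7 CPM in Sed (median 44.98) and from 37.3 to 55.1 in Ex (median 45.9). In CC-Sed it ran from 23.6 to 49.2 (median 30.3) and in CC-Ex from 20.2 to 45.9 (median 32.4). The monocrotaline medians lay under every saline rat, with CC-Sed replicate 4 well above its group. The Log2FC was -0.43 (SE 0.13, adjusted p = 0.0185). *Mrpl51* and *Mrpl40* remained called in all 24 fits that left out 1 rat.

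*Mrps11*, whose bacterial counterpart lines the platform of the small subunit, had a larger fall and a wider spread. Its level was 16.5 to 21.9 CPM in Sed (median 19.2), 15.0 to 23.2 in Ex (median 20.1), 8.91 to 25.3 in CC-Sed (median 13.4) and 6.97 to 20.0 in CC-Ex (median 13.5). CC-Sed replicate 4 was the highest of all rats and CC-Ex replicate 5 the lowest. The Log2FC was -0.46 (SE 0.16, adjusted p = 0.0361), and it stayed called in 12 of the 24 fits without 1 rat. *Mrps12*, the counterpart of the bacterial protein at the decoding center, had a Log2FC of -0.23 (SE 0.08, adjusted p = 0.0355) and medians of 17.5, 16.0, 13.9 and 12.8 CPM in Sed, Ex, CC-Sed and CC-Ex. It too remained called in 12 of 24 such fits.

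The other 3 lower genes changed less or varied more. *Mrpl33*, a small protein of the large subunit, had group medians of 9.16, 8.97, 7.201 and 7.81 CPM in the same order and a Log2FC of -0.20 (SE 0.07, adjusted p = 0.0304). *Mrpl18*, a protein of the central protuberance of the large subunit, had medians of 30.3, 31.5, 23.3 and 27.2 CPM and a Log2FC of -0.32 (SE 0.12, adjusted p = 0.0463). *Mrps21* of the small subunit had medians of 29.9, 30.2, 23.9 and 26.0 CPM and a Log2FC of -0.22 (SE 0.08, adjusted p = 0.0475). Ranges of saline and monocrotaline rats overlapped for all 3, and *Mrpl18* and *Mrps21* each remained called in 6 of 24 fits without 1 rat, while *Mrpl33* did in 21.

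*Mrps27* rose the most. It encodes a small-subunit protein specific to mitochondria, with the pentatricopeptide repeats found in many organelle RNA-binding proteins. Its level was 17.7 to 20.3 CPM in Sed (median 20.0) and 17.6 to 23.1 in Ex (median 20.4), against 20.9 to 32.9 in CC-Sed (median 25.3). In CC-Ex it ran from 16.4 to 68.5 CPM (median 23.3), the top value being CC-Ex replicate 5. Every CC-Sed rat was above every Sed rat, the only one of the 71 genes whose groups did not overlap in that comparison, where 3.61% of all genes did not overlap. Between Ex and CC-Ex the groups overlapped for all 71 genes, against 1.08% of all genes without overlap.

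The Log2FC of *Mrps27* averaged over training was 0.52 (SE 0.16, adjusted p = 0.0245). Without CC-Ex replicate 5 it was 0.29 (adjusted p = 0.0225). For Sed against CC-Sed alone the fit, which shares 1 estimate of spread over all groups, gave 0.46 (SE 0.23, adjusted p = 0.195).

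*Mrpl32* and *Mrpl36*, both large-subunit proteins with bacterial counterparts, were the other higher genes. *Mrpl32* ran from 11.9 to 14.7 CPM in Sed (median 13.9), 11.5 to 15.4 in Ex (median 13.3), 13.9 to 19.6 in CC-Sed (median 16.6) and 13.1 to 22.8 in CC-Ex (median 14.5). *Mrpl36* ran from 12.9 to 17.2 in Sed (median 14.7), 13.4 to 15.5 in Ex (median 14.5), 16.2 to 24.7 in CC-Sed (median 17.2) and 14.3 to 27.6 in CC-Ex (median 15.6). CC-Ex replicate 5 and CC-Sed replicate 6 were the highest rats for both. The Log2FC was 0.27 (SE 0.08, adjusted p = 0.0224) for *Mrpl32* and 0.29 (SE 0.10, adjusted p = 0.0338) for *Mrpl36*. Without CC-Ex replicate 5 the values were 0.18 for both, with adjusted p = 0.0327 for *Mrpl32* and 0.0516 for *Mrpl36*, so that the call for *Mrpl36* was lost. Of the 24 fits without 1 rat, *Mrps27* lost its call only without CC-Sed replicate 1 and *Mrpl32* only without CC-Sed replicate 6, while *Mrpl36* kept its call in 15.

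**Figure D3:**
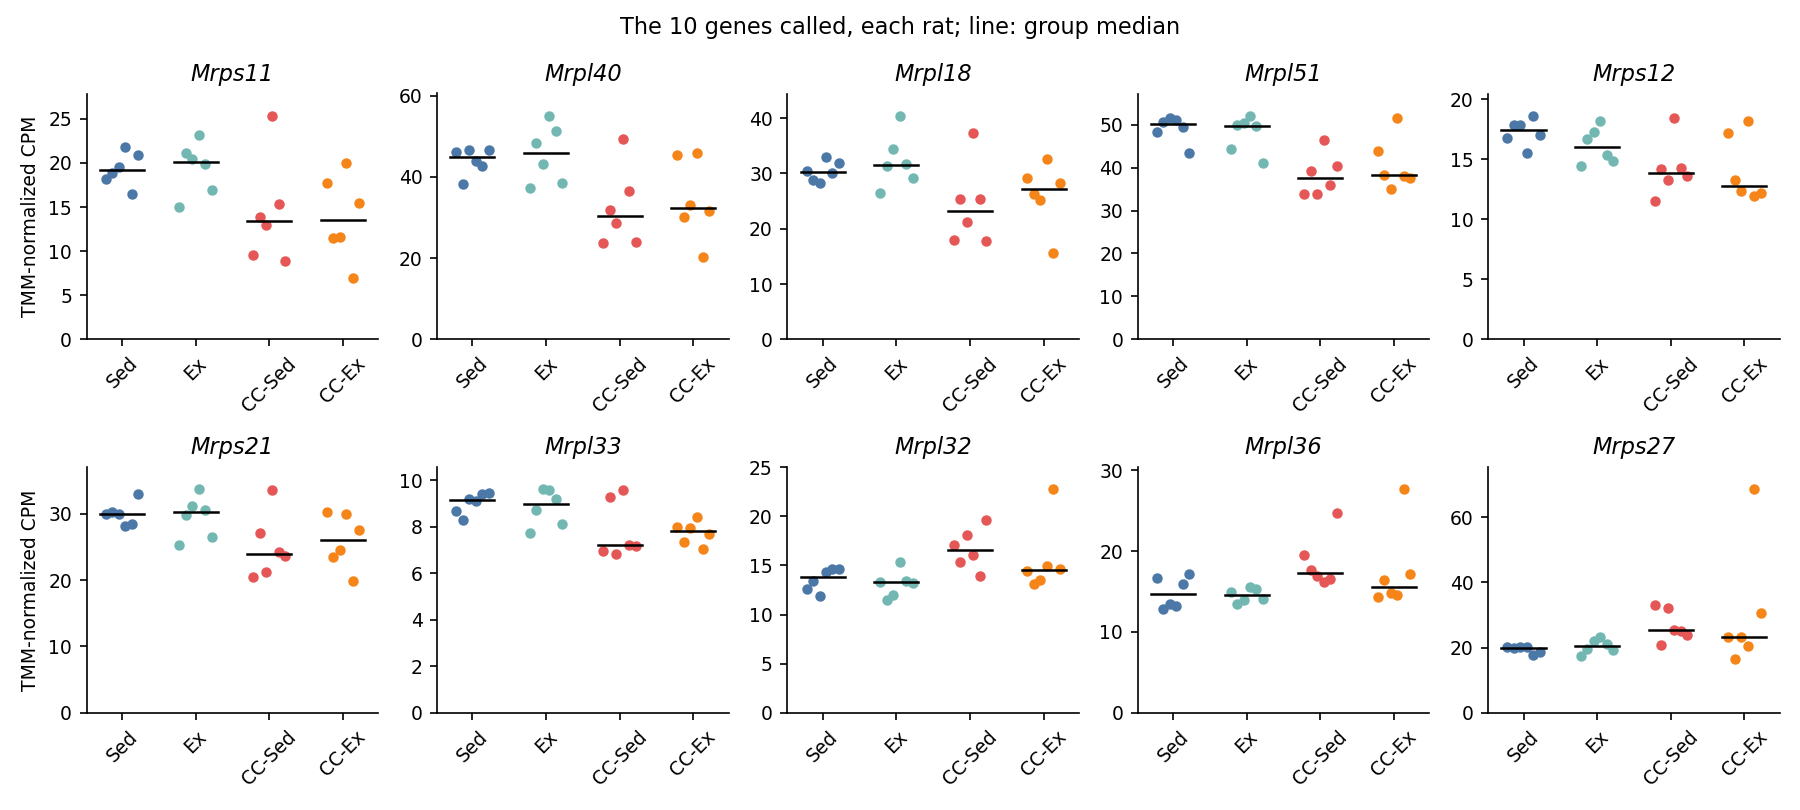
TMM-normalized CPM of the 10 genes called between saline and monocrotaline, in each rat, with a line at each group median. In the 7 lower genes CC-Sed replicate 4 lies near the saline rats, and in *Mrpl32*, *Mrpl36* and *Mrps27* CC-Ex replicate 5 is the highest point.

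These calls depended on which rats and which covariate were in the fit. Without 1 rat the count ran from 4 to 27 of 71, and was 27 or 38.03% without CC-Sed replicate 4, against 35.3% of all genes. That rat stood above its group for most of the lower genes. Shares of all genes for the other fits without 1 rat are not given here. For those counts, a shift in the members cannot be told from one in the whole table. With the share of counts held by the 10 most abundant genes as a covariate, an alternative chosen after seeing the data, 0 of 71 were called, against 6.78% of all genes, and the median Log2FC was 0.00. The 10 genes kept their direction in that fit, with Log2FC from -0.22 for *Mrpl40* to 0.33 for *Mrps27*, and *Mrpl51* was at -0.21 (adjusted p = 0.0541 by edgeR). Mitochondrially encoded genes are part of that share and varied with the members, so this covariate is not independent of them.

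The largest fitted fall did not pass the test. *Mrpl12* encodes the stalk protein of the large subunit, which draws translation factors to the ribosome. It ran from 57.8 to 99.98 CPM in Sed (median 84.6), 61.5 to 119 in Ex (median 91.7), 34.1 to 136 in CC-Sed (median 40.3) and 24.7 to 87.4 in CC-Ex (median 54.4). The CC-Sed rats held both low values and, in replicate 4, the highest of all. The Log2FC was -0.54 (SE 0.23, adjusted p = 0.0729), and the within-group SD of its log2 CPM, 0.57, was the widest of the 71, whose median was 0.23. *Mrpl48*, at the central protuberance of the large subunit, had a Log2FC of -0.42 (SE 0.17, adjusted p = 0.0721), *Mrps16* -0.35 (SE 0.15, adjusted p = 0.0752) and *Mrps35* -0.31 (SE 0.12, adjusted p = 0.0594), the last 2 being small-subunit proteins.

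The genes in this paragraph were not called, and several gave a Log2FC near 0. *Mrps23* of the small subunit was the steadiest, with a within-group SD of 0.11 and medians of 37.1, 38.1, 38.4 and 37.1 CPM, and its Log2FC was 0.02 (SE 0.05, adjusted p = 0.782). *Mrps17* gave -0.00 (SE 0.06) and *Mrpl43* 0.05 (SE 0.06). The 3 *Mrps18* paralogs, whose products occupy different places in the ribosome, gave -0.00 for *Mrps18a* (SE 0.08), 0.05 for *Mrps18b* (SE 0.11) and 0.06 for *Mrps18c* (SE 0.07). *Mrps30* gave 0.03 (SE 0.07), *Mrpl45*, which sits by the exit tunnel near the inner membrane, -0.08 (SE 0.12), and *Mrpl58*, a peptidyl-tRNA hydrolase built into the large subunit, -0.03 (SE 0.07). *Mrps36* gave -0.17 (SE 0.18, adjusted p = 0.491). *Mrpl55* and *Mrps25* completed the 5 highest with 0.16 (SE 0.13) and 0.13 (SE 0.07), and neither passed.

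Split by training, fewer calls were made. Between Sed and CC-Sed, 1 of 71 was called, against 6.22% of all genes, and the median Log2FC was -0.08 with 48 genes below 0. Limma-voom called 14 of 71 or 19.7% there, against 22.7% of all genes, and edgeR without CC-Sed replicate 4 called 17 or 23.9%, against 15.6%. Between Ex and CC-Ex, 0 of 71 were called by edgeR, against 0.986% of all genes, with a median of -0.10 and 49 genes below 0. At an unadjusted p under 0.05 that comparison held 4 of the 71, 1 higher and 3 lower, against 22.5% of all genes. DESeq2 called 0, against 6.31% of all genes, and limma-voom 4 of 71, against 9.54%. In both comparisons 42 genes lay below 0 and 16 above, and the 2 share no rats. The genes vary together within rats, so these signs are not separate observations. The same count over all genes is not given here. The criterion that also asks for a Log2FC of at least 1 in size was met by 0 of the 71 in either, against 1.8% of all genes for Sed and CC-Sed and 0.516% for Ex and CC-Ex.

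Training itself moved none of these genes past the threshold. Between Sed and Ex, and between CC-Sed and CC-Ex, 0 of 71 were called, where 0% of all 10851 genes were called too. The medians were 0.00 in both, with ranges of -0.15 to 0.16 and -0.22 to 0.21. The interaction, which asks whether monocrotaline had a different effect in trained rats, called 0 of 71 and 0% of all genes, with a range of -0.22 to 0.31. Of the 71, 0 had an unadjusted p under 0.05 in any of the 3 comparisons by edgeR, against 116, 232 and 153 of all genes in the same order, and DESeq2 and limma-voom each called 0. The smallest p between Sed and Ex was that of *Mrps6* (Log2FC -0.11, SE 0.09), followed by *Mrpl21* (-0.10, SE 0.09) and *Mrps25* (0.12, SE 0.10). Between CC-Sed and CC-Ex it was that of *Mrps10* (0.20, SE 0.11), followed by *Mrps26* (0.14, SE 0.10) and *Mrpl30* (-0.12, SE 0.10). For the interaction the first 3 were *Mrps25* (-0.22, SE 0.15), *Mrps10* (0.21, SE 0.16) and *Mrps35* (0.31, SE 0.24).

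Within groups most of these genes rose and fell together from rat to rat. With group means removed, the median correlation over the 2485 pairs was r = 0.50 across 24 rats, and 50.6% of the pairs were above 0.5, against a median of -0.00 and 12.2% over all pairs of genes in the table. Pairs within the large subunit had a median of 0.51, pairs within the small subunit 0.44 and pairs between the subunits 0.50, and the mean levels of the subunits correlated at r = 0.97. These rats share library, scaling and fiber makeup in both members of each pair, so the values are a description. Of the 71 genes, 54 correlated above 0.5 with the mean of the other 70, the highest being *Mrpl3* and *Mrpl35* at 0.94, large-subunit genes named here for that value.

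A few genes did not move with the rest. Their correlation with the mean of the other genes was under 0.1 for 9 genes, and of these 8 had a Log2FC above 0. All 3 higher calls were among them, with r = -0.28 for *Mrpl36*, -0.15 for *Mrps27* and -0.12 for *Mrpl32*. The 7 lower calls had r from 0.68 for *Mrpl51* to 0.86 for *Mrps21*. *Mrpl36* correlated at r = 0.63 with the mean of the cytosolic ribosomal protein genes and at -0.63 with the share of the 10 most abundant genes, whereas *Mrps11* gave -0.60 and 0.86 with the same measures. The remaining genes of the 9, chosen for this value, were *Mrpl55*, *Mrpl49*, *Mrps2*, *Mrps10*, *Mrpl17* and *Mrpl23*, none of them called.

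**Figure D4:**
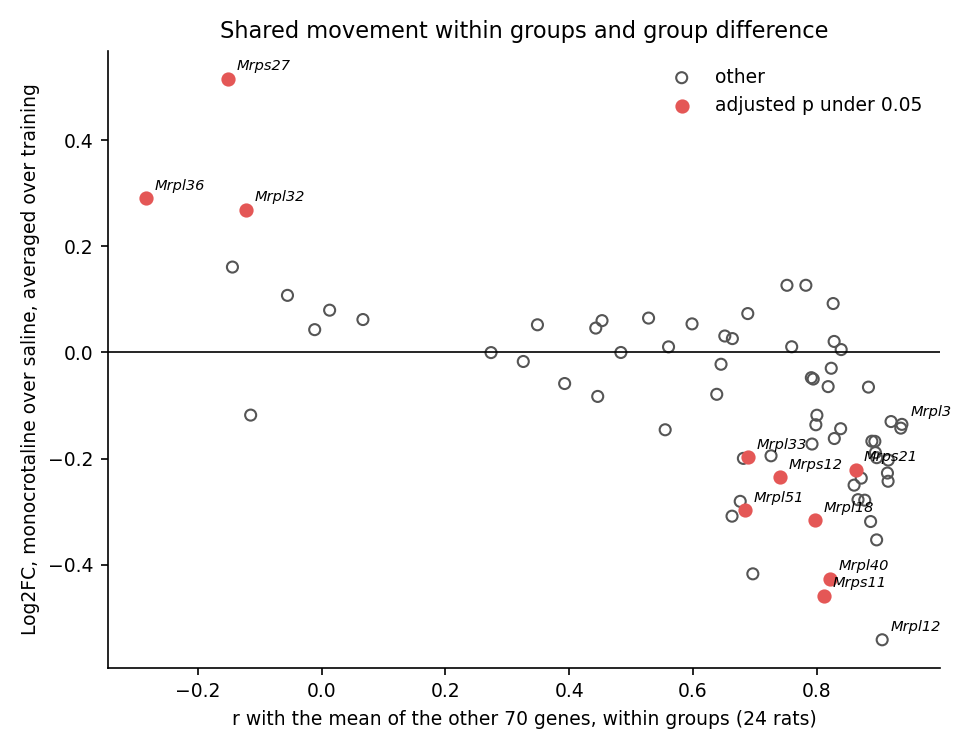
For each of the 71 genes, the correlation of its log2 CPM with the mean of the other genes over 24 rats with group means removed (horizontal axis) and its Log2FC of monocrotaline over saline (vertical axis). The 3 higher calls lie at correlations of -0.28 to -0.12 and the 7 lower calls at 0.68 to 0.86. CC-Ex replicate 5, the highest rat for the 3 higher calls, is included.

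The upstream sequences of these genes were examined because several have a neighbor that starts close by on the opposite strand. RefSeq promoter stretches of the GRCr8 build, from 250 bases before to 50 after the start, were matched for 54 of the 71 genes. Of these, 17 (31.5%) had a gene starting on the opposite strand within 1000 bases upstream, against 11.0% of all 33469 stretches. Those stretches include genes absent from the count table, and the share among genes in the table was not computed. *Mrps11* and *Mrpl46* are a pair on opposite strands, their starts 234 bases apart. Their levels correlated at r = 0.79 over 24 rats with group means removed, and the Log2FC of *Mrpl46*, of the large subunit, was -0.20 (SE 0.11, adjusted p = 0.163) beside the -0.46 of *Mrps11*. The bases between the starts are shown for the 5 called genes with a neighbor closer than 250 bases, read 5′ to 3′ toward the ribosomal protein gene. Capitals mark GCGCATGC (a core of sites for NRF1, a regulator of mitochondrial genes), CCGGAAG (an ETS factor core), ATGGCGGC (a YY1 core) and TATAAA, or their reverse complements. Overlapping matches run together, and all 5 genes lie on the plus strand. The stretches are chr4:159677939-159677987 for Mrpl51, chr11:95637566-95637750 for Mrpl40, chr1:142117031-142117263 for Mrps11, chr2:32474114-32474203 for Mrps27 and chr17:55260442-55260650 for Mrpl32.
Mrpl51: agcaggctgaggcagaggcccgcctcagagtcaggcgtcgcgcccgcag
Mrpl40: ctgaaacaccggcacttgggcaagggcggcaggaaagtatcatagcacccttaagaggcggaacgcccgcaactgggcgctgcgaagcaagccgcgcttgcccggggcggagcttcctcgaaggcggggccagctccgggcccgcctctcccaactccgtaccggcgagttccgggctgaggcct
Mrps11: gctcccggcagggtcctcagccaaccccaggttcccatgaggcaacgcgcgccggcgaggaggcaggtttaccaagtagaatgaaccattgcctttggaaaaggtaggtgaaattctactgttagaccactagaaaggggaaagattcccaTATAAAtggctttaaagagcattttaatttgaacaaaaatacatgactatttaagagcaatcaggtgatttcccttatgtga
Mrps27: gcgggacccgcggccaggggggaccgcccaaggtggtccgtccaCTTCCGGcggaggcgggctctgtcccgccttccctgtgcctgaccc
Mrpl32: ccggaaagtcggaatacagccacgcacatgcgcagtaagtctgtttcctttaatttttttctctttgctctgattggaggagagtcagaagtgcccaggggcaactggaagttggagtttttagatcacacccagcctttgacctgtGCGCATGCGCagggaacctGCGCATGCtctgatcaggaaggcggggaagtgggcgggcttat

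The neighbors did not all move with the ribosomal protein genes. *Mrpl32* faces *Psma2*, a proteasome subunit gene, across 210 bases, and the pair correlated at r = 0.80, with a Log2FC of 0.55 (SE 0.21, adjusted p = 0.0563) for *Psma2*. *Mrpl40* faces *Hira*, a histone chaperone gene, which was lower too (-0.15, SE 0.05, adjusted p = 0.0267), with r = 0.26. *Mrps27* and *Ptcd2*, 91 bases apart, gave r = 0.01, and *Ptcd2* had a Log2FC of 0.08 (SE 0.09, adjusted p = 0.546). *Mrpl51* and *Ncapd2*, a condensin gene 50 bases away, gave r = -0.32, and *Ncapd2* had a Log2FC of 0.46 (SE 0.20, adjusted p = 0.0826). *Mrpl18* and *Tcp1*, a chaperonin gene 425 bases away, moved in opposite directions, with 0.30 for *Tcp1* (SE 0.08, adjusted p = 0.0146) and r = -0.78. *Mrpl47* and *Ndufb5*, of respiratory complex I, a pair chosen for the highest correlation among these pairs, gave r = 0.84, with -0.28 (SE 0.12, adjusted p = 0.0806) for *Mrpl47*.

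Counted on both strands of the whole stretch, CCGGAAG was in 33.3% of the 54 stretches, against 8.75% of all stretches and 17.8% of those of genes in the count table. ATGGCGGC was in 20.4%, against 2.53% and 6.07%, GCGCATGC in 9.26%, against 2.47% and 5.28%, and TATAAA in 13.0%, against 14.2% and 6.72%. Of the called genes, *Mrps27* and *Mrpl36*, both higher, and *Mrpl33*, lower, hold CCGGAAG, *Mrps27* also holds ATGGCGGC, *Mrpl32* holds GCGCATGC and *Mrps11* TATAAA. The stretches printed for *Mrpl51* and *Mrpl40* hold none of the 4. A match is a description of these letters, and whether any factor binds there was not measured. A stretch was matched for 8 of the 10 called genes.

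Some subunits of the mitochondrial ribosome carry other names, and 4 of 5 were in the table. *Gadd45gip1*, *Ptcd3* and *Chchd1* were lower in monocrotaline rats averaged over training and *Dap3* had a Log2FC of -0.19 (adjusted p = 0.107). Of all genes, 10.6% were called lower in that comparison. *Gadd45gip1*, of the large subunit, ran from 41.5 to 55.2 CPM in Sed (median 50.1), 43.5 to 50.7 in Ex (median 47.4), 17.3 to 44.7 in CC-Sed (median 28.2) and 17.2 to 57.7 in CC-Ex (median 31.998), with a Log2FC of -0.62 (SE 0.16, adjusted p = 0.00775). That Log2FC is lower than for any of the 71 genes. *Ptcd3* gave -0.27 (SE 0.09, adjusted p = 0.0303) and *Chchd1* -0.28 (SE 0.10, adjusted p = 0.0467), both of the small subunit.

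The table writes 3 more genes of the family in lower case, mrpl9, mrpl11 and mrpl24, which the rule did not match. The first of them, a large-subunit gene described because of its values, ran from 22.1 to 28.8 CPM in Sed (median 27.2), 21.5 to 27.1 in Ex (median 25.0), 31.7 to 40.4 in CC-Sed (median 33.5) and 27.6 to 44.4 in CC-Ex (median 32.3). Monocrotaline rats were above all saline rats of the same training. Its Log2FC averaged over training was 0.42 (SE 0.07, adjusted p = 0.000894), and it was called between Sed and CC-Sed (0.40, SE 0.11, adjusted p = 0.0311) and between Ex and CC-Ex (0.44, SE 0.11, adjusted p = 0.0443). The gene mrpl11 gave -0.10 (SE 0.11) and mrpl24 -0.24 (SE 0.14), and neither was called.

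Other genes of mitochondrial translation were mixed. The calls below, averaged over training, compare with 17.2% of all genes called higher and 10.6% lower. The table holds 22 ribosome assembly factors in 23 rows, *Nsun4* having 2 rows that were both counted. Of these, *Ngrn* and *Mtg1* were higher and *Mrm2*, a methyltransferase of the large ribosomal RNA, was lower, with Log2FC of 0.24 (SE 0.06, adjusted p = 0.00935), 0.16 (SE 0.06, adjusted p = 0.0465) and -0.48 (SE 0.12, adjusted p = 0.00731), and the list median was 0.02. Of 14 translation factors in the table, 4 were lower and 0 higher. These were *Taco1*, an activator of cytochrome oxidase subunit translation (-0.65, SE 0.18), *Slirp*, which stabilizes mitochondrial messages (-0.30, SE 0.09), *Guf1* (-0.38, SE 0.14) and *Gfm2*, which helps recycle ribosomes (-0.26, SE 0.10), with adjusted p from 0.0132 to 0.0488. Of 15 tRNA synthetases, *Iars2* was higher (0.26, SE 0.06, adjusted p = 0.00743) and *Pars2* lower (-0.50, SE 0.17, adjusted p = 0.0318). Of 11 genes for transcription and upkeep of mitochondrial DNA, *Polrmt*, the mitochondrial RNA polymerase (0.42, SE 0.10, adjusted p = 0.00673), and *Polg2* (0.66, SE 0.19, adjusted p = 0.0158) were higher and *Mgme1*, a nuclease (-0.33, SE 0.11, adjusted p = 0.0350), lower.

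Of 12 nuclear regulators, *Myc* (2.52, SE 0.55, adjusted p = 0.00340), *Nfe2l2* (0.68, SE 0.18, adjusted p = 0.00870), *Pprc1* (0.54, SE 0.17, adjusted p = 0.0249) and *Yy1* (0.29, SE 0.10, adjusted p = 0.0391) were higher, and *Ppargc1b*, a coactivator of mitochondrial genes, was lower (-1.03, SE 0.38, adjusted p = 0.0453). For *Myc* and *Nfe2l2*, CC-Ex replicate 5 was the highest rat, at 111 and 129 CPM. The highest saline rat had 9.12 and 48.4 CPM. For both genes, CC-Sed replicates 2 and 4 and CC-Ex replicates 1, 2 and 4 lay below that saline rat, and the other monocrotaline rats above it. The 13 mitochondrially encoded genes in the table were all below 0, with a median of -0.31, and 0 passed by edgeR, although 6 had an unadjusted p under 0.05. Of 73 nuclear genes of the respiratory chain and ATP synthase, 68 lay below 0 with a median of -0.20, and 1, *Ndufa4l2*, was called (-0.35, adjusted p = 0.0490). In contrast, 36 of the 70 cytosolic ribosomal protein genes were called higher and 1 lower, with a median of 0.23. The counts for all these lists compare with 17.2% of all genes called higher and 10.6% lower. Whether the mitochondrial and cytosolic ribosomal protein genes differed as lists was not tested.

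**Figure D5:**
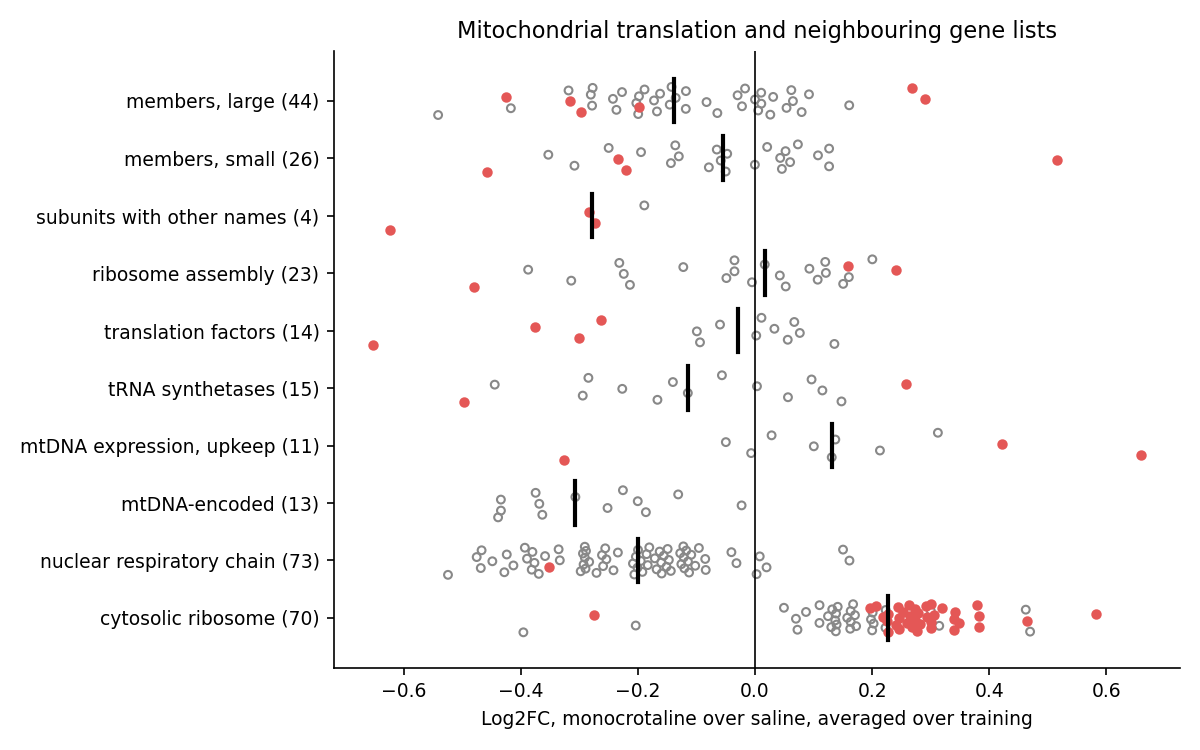
Log2FC of monocrotaline over saline, averaged over training, for each gene of the mitochondrial ribosome and of related lists, with the number of genes in brackets. Filled points passed an adjusted p of 0.05 and black lines are list medians, which run from -0.31 for mitochondrially encoded genes to 0.23 for the cytosolic ribosome.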

How the data were processed

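RNA of the left medial gastrocnemius of 24 rats was sequenced after poly-A selection with a stranded kit. The authors trimmed reads with Trim Galore, quantified transcripts with Salmon against the mRatBN7.2 transcriptome, summed them to genes with tximport and deposited expected counts rounded to whole numbers for 10851 genes. The lowest count is 10, so genes low in any rat are not in the table. DESeq2 1.44.0 was the authors' test per the labels.

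Counts were analysed with edgeR 4.0.16 (R 4.3.3): filterByExpr, which removed 0 genes, TMM, robust quasi-likelihood fit over all 24 rats with 1 mean per group, and Benjamini-Hochberg adjustment over all genes for each of 6 contrasts. Called means an adjusted p under 0.05. A SE is the Log2FC divided by the square root of F. Log2 CPM used a prior count of 2. Exact permutation tests, two-sided, used 924 arrangements of 6 against 6, or both training levels together. The test was checked on simulated counts of 10851 genes for the averaged comparison, where edgeR recovered 79 of 100 changes of 0.75 and 99 of 100 of 1.5 on the log2 scale, with 9 false calls. Both sizes exceed the change of any member, so power at the sizes reported was not tested. Alternatives used DESeq2 1.42.0, limma 3.58.1 and other scalings, filters and covariates.

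Members named singly were those called, those with the smallest p in each comparison, the 5 highest and 5 lowest Log2FC, the 3 widest and 3 narrowest within-group spreads, and a list by role (*Mrps18a*, *Mrps18b*, *Mrps18c*, *Mrps30*, *Mrps36*, *Mrpl12*, *Mrpl41*, *Mrpl45*, *Mrpl58*). *Mrpl41* was not analysed here. *Mrpl3*, *Mrpl35*, *Mrpl46*, *Mrpl47*, *Mrpl49*, *Mrps2*, *Mrpl17* and *Mrpl23* fall outside this rule and were named after their values were seen. Levels of different genes were not compared, as no transcript lengths were at hand. The members and lists were chosen with earlier results of these data known. Labels give each rat a replicate number within its group, and same-numbered rats did not vary together (mean r from -0.23 to 0.09). P-values rest on the spread between 6 rats a group. Promoter stretches are RefSeq's, in a newer build than the counts, whose gene coordinates were not used.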

Additional observations from a re-analysis of the deposited data

Results flagged for a closer look

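For the members named singly and the means of all members and of each subunit, the highest and the lowest rat of each group were compared with the nearest rat by Dixon's ratio, the gap divided by the range of the group's log2 CPM, against Dixon's critical value for 6 rats. Of 136 groups examined, 7 gave a rat standing apart, and chance alone gives about 1 in 20. CC-Ex replicate 5 accounted for 5 of the 7. It was the highest CC-Ex rat for *Mrpl32* (22.8 CPM against 14.9 for the next, ratio 0.767), *Mrpl36* (27.6 against 17.1, ratio 0.724) and *Mrpl55* (22.4 against 12.2, ratio 0.635). It was the lowest for *Mrpl18* (15.6 against 25.3, ratio 0.652) and *Mrpl48* (9.85 against 22.2, ratio 0.629). CC-Sed replicate 1 was the lowest CC-Sed rat for *Mrpl30* (8.35 against 10.8, ratio 0.747), and Sed replicate 5 the lowest Sed rat for *Mrpl48* (22.9 against 31.5, ratio 0.683).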

How the results depend on the processing

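Over all alternatives the median Log2FC of the members ran from -0.20 to 0.00 averaged over training, from -0.17 to 0.00 for Sed against CC-Sed and from -0.17 to 0.00 for Ex against CC-Ex, the upper end being the fit with the share of the 10 most abundant genes as a covariate. For monocrotaline averaged over training, 10 members were called (27.8% of all genes). The count became 4 with library number as a covariate (23.1%) and 17 with the slow-fiber score as a covariate (36.2%). By limma-voom with sample quality weights it was 28 (36.4%). The count was 0 where a Log2FC of at least 1 was also asked. It was also 0 with the share of the 10 most abundant genes as a covariate (6.78%), chosen after seeing the data. For Sed against CC-Sed the count of 1 became 2 with only its 12 rats and 2 with the slow-fiber score. It became 14 by limma-voom (22.7% of all genes), 2 with the lower-case symbols added, and 0 under the last 2 settings. For Ex against CC-Ex the count of 0 became 4 by limma-voom (9.54% of all genes) and 1 with the lower-case symbols. The replicate block gave 15, 1 and 0 calls for these 3 comparisons and 0 for the training comparisons and the interaction. Same-numbered rats share only a number. Where no share of all genes stands beside a count, a shift in the members cannot be told from one in the whole table.

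Leaving out 1 rat gave 4 to 27 calls averaged over training, 0 to 17 for Sed against CC-Sed and 0 to 1 for Ex against CC-Ex, where the 1 came without CC-Ex replicate 4. Averaged over training it was 4 without Ex replicate 3, CC-Sed replicate 1 or 6, 5 without Ex replicate 2 or 4 or CC-Sed replicate 3, 6 without Sed replicate 2, 3 or 4 or CC-Ex replicate 2, 3 or 5, 16 without CC-Ex replicate 1, 17 without CC-Ex replicate 4 and 27 without CC-Sed replicate 4. For Sed against CC-Sed it was 0 without Sed replicate 2, 3, 4 or 5 or CC-Sed replicate 1, 3, 5 or 6, and 17 without CC-Sed replicate 4. Without CC-Sed replicate 4, 35.3% of all genes were called averaged over training and 15.6% for Sed against CC-Sed. Shares of all genes for the other fits without 1 rat are not given here. The causes of these shifts were not tested.

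Members near 0 changed sign. With upper-quartile scaling *Mrpl21* was at -0.0470, *Mrpl30* -0.00945, *Mrpl43* -0.0251, *Mrps10* -0.0389, *Mrps18b* -0.0384, *Mrps18c* -0.0127, *Mrps23* -0.0522 and *Mrps30* -0.0537. With at least 100 counts in every rat *Mrpl21* was at -0.00650, *Mrps23* -0.0144 and *Mrps30* -0.0120. With library number as a covariate *Mrpl45* was at 0.0975, *Mrps17* 0.0645, *Mrps18a* 0.103 and *Mrps6* 0.0404, with the slow-fiber score *Mrps17* 0.00386 and *Mrps18a* 0.00126, and by limma-voom *Mrps18b* -0.0717 and *Mrps30* -0.0289. No member called in the averaged comparison changed sign. Library numbers of CC-Ex rats ran from 1 to 14 and those of Sed rats from 9 to 24, and the part of library order was not tested beyond this covariate.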
